A study of Saccharomyces cerevisiae with 48 samples.

Results

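The 4 peak lists described here map under-wound DNA in budding yeast cells that carry top2-1 and were grown at 32 °C, and they form 2 pairs that differ only in sen1. They were chosen by strain and temperature from the labels, as 4 of the 24 libraries with a peak list and 4 of the 20 lists of this assay. The first pair sets sen1top2-1 against top2-1, with RRM3 intact in both strains, and is called the RRM3-intact pair below. The second sets sen1rrm3top2-1 against rrm3top2-1, with rrm3 in both strains, and is called the rrm3 pair. All 4 cultures grew in log phase in YPG, were moved to YPD at 25 °C for 1.5 h and then spent 1 h at 32 °C. Each strain has 1 library, so no difference below has a replicate check, and nothing in the labels says how many clones or cultures a library holds. The sources used here do not describe the sen1 and rrm3 alleles.

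DNA was marked with bTMP, a biotinylated trimethylpsoralen that intercalates preferentially where the double helix is under-wound, and the marked DNA was pulled down and sequenced. Elongating RNA polymerase leaves over-wound DNA ahead of it and under-wound DNA behind it, and topoisomerases relax both forms. Top2 is the yeast type II topoisomerase, which passes one double helix through another, and top2-1 is a temperature-sensitive allele of its gene. Sen1 is a helicase that releases RNA polymerase II at the ends of short non-coding transcripts together with the RNA-binding proteins Nrd1 and Nab3. Rrm3 is a helicase that travels with replication forks and helps them past protein barriers such as tRNA genes. The comparison asks where under-wound DNA was found at more or fewer places with sen1 when Top2 function was impaired, and whether the answer was the same with RRM3 and with rrm3.

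The 2 pairs differed in the same direction about as often as in opposite directions. Among 6002 protein-coding genes, 218 differed in the same direction in both pairs and 211 in opposite directions. Of 14 feature classes, 13 had differences of opposite sign in the 2 pairs, and 10 or 11 had when the lists were cut to a common size or to better-scored peaks. Genes that differed the same way in both pairs included the chromatin remodelling genes SNF6 (higher cover with sen1) and IES6 (lower), the ribosomal protein genes RPS30B (higher) and RPS12 (lower), and the cohesin gene MCD1 (lower).

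The sen1top2-1 list stood apart from the other 3, and every result on the RRM3-intact pair rests on it. It held 3171 nuclear peaks, against 4161 in top2-1, and the sen1rrm3top2-1 list held 3825, against 3982 in rrm3top2-1. Peaks covered 7.0% of the nuclear genome in sen1top2-1, against 10.2% in top2-1, and 9.08% in sen1rrm3top2-1, against 9.40% in rrm3top2-1. The log2 ratio of covered share was -0.54 in the RRM3-intact pair and -0.05 in the rrm3 pair. Base-pair overlap, as the Jaccard index, lay between 0.462 and 0.473 for sen1top2-1 with each of the other 3 lists and between 0.589 and 0.602 among those 3. This index falls when 1 list is shorter than the other. At an overlap of at least 1 bp, 75.4% to 79.6% of sen1top2-1 peaks touched a peak of each other list. Among the other 3 lists this share was 75.1% to 82.1%. The lists are otherwise of one kind, with median peak widths of 234 to 257 bp and smallest gaps of 158 to 163 bp. Read depth is unknown, and the part of depth or peak calling in these list lengths was not tested.

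The strain loci could be checked only by peak cover, which does not show whether an allele is present. The RRM3 gene body had 0% cover in sen1top2-1 and 8.61% in top2-1, and 0% in sen1rrm3top2-1 and rrm3top2-1. The absence of a peak over RRM3 in sen1top2-1, a strain with intact RRM3, means that cover of this gene does not separate the rrm3 strains from the others. SEN1 had 0% of its body covered in sen1top2-1 and 5.69% in top2-1, and 0% in both rrm3 strains. TOP2, the gene that carries top2-1, had body cover of 8.93% to 9.31% and TOP1, which encodes the type I topoisomerase, 13.6% to 14.9% over the 4 lists.

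Most peaks were shared within each pair. At an overlap of at least 1 bp, 79.6% of sen1top2-1 peaks touched a top2-1 peak, with an exact 95% binomial interval of 78.2% to 81.0%, and 60.3% of top2-1 peaks touched a sen1top2-1 peak. In the rrm3 pair, 78.8% of sen1rrm3top2-1 peaks touched an rrm3top2-1 peak and 75.7% of rrm3top2-1 peaks touched a sen1rrm3top2-1 peak. Such intervals cover counting error only. Joined where they overlapped, the peaks of the 4 lists made 5625 sites, and 2011 of these, 35.8%, were present in all 4 lists.

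Sites that followed sen1 in both pairs were few. In both sen1 lists and neither of the others were 94 sites, 1.67% of the total with an interval of 1.35% to 2.04%. In both lists without sen1 and neither sen1 list were 258 sites, 4.59% with an interval of 4.06% to 5.17%. The crossed patterns, in which sen1 goes one way in one pair and the other way in the other, held 121 sites (sen1top2-1 and rrm3top2-1 only) and 247 sites (sen1rrm3top2-1 and top2-1 only). The pattern with the most sites after the full set was presence in every list but sen1top2-1, with 700 sites. Sites found with sen1 only touched a promoter in 31.9% of cases and a gene body in 81.9%, against 24.8% and 83.7% for sites found without sen1 only, and 34.7% and 84.5% for all sites.

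The sites that ranked highest by the authors' score in both lists that held them were picked out after their values were seen. The score is the authors' own value and only ranks peaks within a list. With sen1 only, a site at TDA7 on chromosome XIV stood at percentile 97.7 of the sen1top2-1 list (XIV:307064-307246) and 94.4 of the sen1rrm3top2-1 list (XIV:306793-307248). Sites at SAW1, a factor in single-strand annealing repair, at YCK1, a plasma membrane casein kinase, and at SPA2, a polarity scaffold, were also above percentile 84 in both sen1 lists. Without sen1 only, the top site lay at the glucose transporter gene HXT6 on chromosome IV (IV:1161261-1161423 in top2-1, percentile 99.2, and IV:1161255-1161416 in rrm3top2-1, percentile 99.5). HXT6 and HXT7 are near-identical copies, so reads from one may have been placed at the other. Other such sites lay at the biotin synthesis genes BIO3 and BIO4, at KGD2 of the 2-oxoglutarate dehydrogenase complex, at the G1 regulator gene MSA1 and at ECO1, the acetyltransferase that establishes cohesion.

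Cover was next measured gene by gene as the percentage of the gene body plus 300 bp upstream that lay under peaks, and a gene was counted as higher or lower where the sen1 list differed by at least 10 percentage points. In the RRM3-intact pair 336 genes were higher in sen1top2-1 (5.6% of all 6002) and 1047 were lower (17.4%). In the rrm3 pair 450 were higher in sen1rrm3top2-1 (7.5%) and 491 were lower (8.18%). In the RRM3-intact pair, with lists of equal length 573 genes were higher and 718 lower, and with equal covered base pairs 666 were higher and 602 lower. In the rrm3 pair the same settings gave 537 higher and 492 lower, and 524 higher and 482 lower. The lists were cut to the size of sen1top2-1, 3171 peaks or 844075 bp. In the RRM3-intact pair only top2-1 lost peaks, and in the rrm3 pair both lists did, so the balance shifts by construction. The part of list size in the balance was not tested. Higher in both pairs were 61 genes (1.02%) and lower in both 157 (2.62%). Higher in the RRM3-intact pair and lower in the rrm3 pair were 60 genes (1.0%), and 151 showed the reverse (2.52%). Peaks of at least 1 of the 4 lists touched 3909 genes, and 2093 genes had no cover in any.

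A gene's direction in one pair was little guide to its direction in the other. Of the 336 genes higher in the RRM3-intact pair, 18.2% were also higher in the rrm3 pair and 17.9% were lower there. Of the 1047 lower in the RRM3-intact pair, 15% were also lower in the rrm3 pair and 14.4% were higher. Across all 6002 genes the differences of the 2 pairs had Pearson's r of 0.0297 and Spearman's rho of 0.0184, given as a description because genes within a library are not independent. With 2 pairs, an exact sign-flip permutation test cannot go below p = 0.5, so no gene or class was tested for a shared direction.

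**Figure D1:**
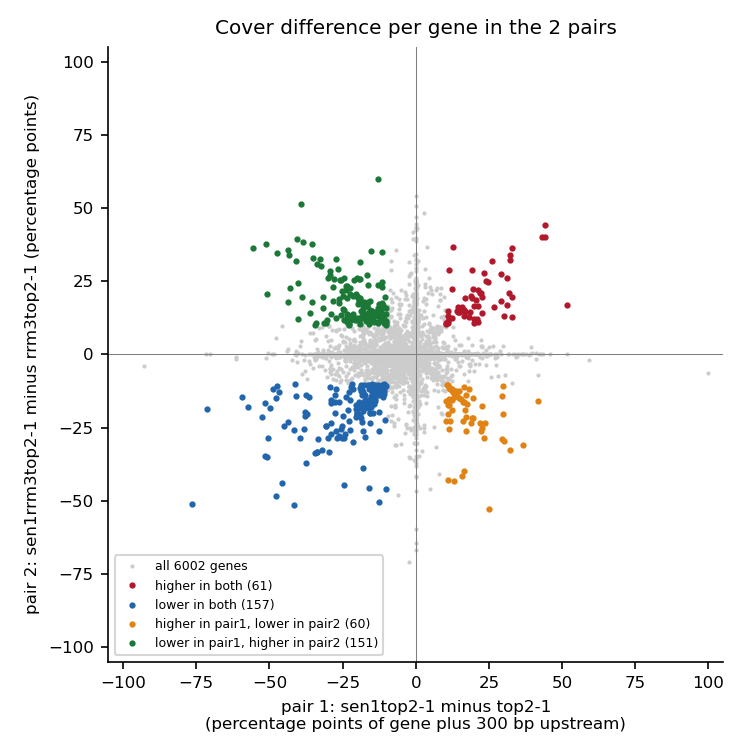
Difference in peak cover for each protein-coding gene, in percentage points with sen1 minus without, in the RRM3-intact pair (x axis) and the rrm3 pair (y axis); each point is 1 gene, with the 61 genes higher in both pairs and the 157 lower in both in colour. The corner regions of shared direction hold 218 genes and those of opposite direction 211, and the cloud has no slope (r = 0.0297).

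Of the 61 genes higher in both pairs, 37 (60.7%) had no peak in either list without sen1. Of the 157 lower in both, 62 (39.5%) had no peak in either sen1 list. The higher genes were on all 16 nuclear chromosomes, and chromosome IV, which has 766 genes, held 9 of them. Chromosome XIII held 1 higher gene and 19 lower genes of its 472. The differences of the chosen genes are a consequence of how they were chosen and carry no evidence of their own.

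Among the 12 genes with the widest higher cover in both pairs were several with no peak without sen1. SNF6, which encodes a subunit of the SWI/SNF chromatin remodeller, had 24.7% cover in sen1top2-1 and 0% in top2-1, and 24.6% in sen1rrm3top2-1 and 0% in rrm3top2-1. The peaks behind these values were nearly the same in both sen1 lists, at VIII:54938-55258 in sen1top2-1 and VIII:54939-55258 in sen1rrm3top2-1. RTG1, which encodes a transcription factor that signals mitochondrial state to the nucleus, had 35.3% cover in sen1top2-1 and 2.52% in top2-1, and 36.3% in sen1rrm3top2-1 and 0% in rrm3top2-1. It had a second peak in both sen1 lists, at XV:202452-202719 in sen1top2-1 and XV:202450-202722 in sen1rrm3top2-1, that neither other list contained.

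The other members of this group of 12 have unrelated known roles. POC4, a chaperone for assembly of the proteasome core, had 32.1% cover in sen1top2-1 and 0% in top2-1, and 34.0% in sen1rrm3top2-1 and 0% in rrm3top2-1. NOP19, needed for small ribosomal subunit assembly, had 32.2% in sen1top2-1 and 0% in top2-1, and 32.1% in sen1rrm3top2-1 and 0% in rrm3top2-1. PER1, which acts on the lipid part of GPI anchors in the endoplasmic reticulum, had 24.1% in sen1top2-1 and 0% in top2-1, and 25.0% in sen1rrm3top2-1 and 0% in rrm3top2-1. For these 3 genes each sen1 list held a single peak across the edge of the gene or of its upstream window, such as III:207831-208161 for PER1 in sen1top2-1. LAA2, an accessory factor of the clathrin adaptor AP-1, had 31.3% in sen1top2-1 and 0% in top2-1, and 26.1% in sen1rrm3top2-1 and 0% in rrm3top2-1. EFM6, a methyltransferase of translation elongation factor 1A, had 23.3% in sen1top2-1 and 0% in top2-1, and 27.8% in sen1rrm3top2-1 and 0% in rrm3top2-1. Some of these peaks ranked low by score within their list. In sen1rrm3top2-1 the peaks of POC4, NOP19 and LAA2 stood at percentiles 5.7, 7.5 and 6.4. The sen1top2-1 peaks of POC4 and NOP19 stood at 34.2 and 55.9. PER1 peaks stood at 86.5 in sen1top2-1 and 77.1 in sen1rrm3top2-1. The remaining members were HMRA2, YCR025C, YDL159W-A, FYV12 and YLR255C, with cover of 27.5% to 67.6% in the sen1 lists and 0% to 24.4% in the lists without sen1. HMRA2 belongs to the silent mating-type cassette HMR, which shares sequence with the other mating-type loci, so its values are uncertain.

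The 12 genes with the widest lower cover in both pairs included a chromatin remodelling gene too. IES6, a subunit of the INO80 remodeller, had 0% in sen1top2-1 and 45.7% in top2-1, and 0% in sen1rrm3top2-1 and 43.9% in rrm3top2-1. The peak lay at V:69516-69881 in top2-1 and V:69535-69886 in rrm3top2-1. RPS12, a protein of the small ribosomal subunit, had 9.84% in sen1top2-1 and 51.5% in top2-1, and 0% in sen1rrm3top2-1 and 51.5% in rrm3top2-1. At RPS12 the sen1top2-1 peak was a short remainder, XV:1028108-1028265, of the interval XV:1028106-1028570 found in top2-1. NOP53, a factor in large ribosomal subunit maturation, had 9.47% in sen1top2-1 and 39.1% in top2-1, and 0% in sen1rrm3top2-1 and 33.4% in rrm3top2-1. CSI1, a subunit of the COP9 signalosome, had 9.43% in sen1top2-1 and 43.2% in top2-1, and 9.93% in sen1rrm3top2-1 and 43.4% in rrm3top2-1. CSI1 kept its upstream peak in all 4 lists, and a second peak within the gene body was present without sen1 only, at XIII:323550-323901 in top2-1 and XIII:323518-323914 in rrm3top2-1. BER1, linked to microtubule function, had 0% in sen1top2-1 and 33.9% in top2-1, and 0% in sen1rrm3top2-1 and 33.4% in rrm3top2-1. The remaining members were PMP1, which encodes a small regulator of the plasma membrane proton pump, FYV4, ILT1, YER188C-A, YHR086W-A, YHR007C-A and YOR381W-A. Their cover was 0% to 50.1% in the sen1 lists and 32.1% to 100% in the lists without sen1. Some peaks of these 12 genes also ranked low by score. In rrm3top2-1 the peaks of BER1 and ILT1 stood at percentiles 9.9 and 1.03, against 55.3 and 26.1 in top2-1. The IES6 peaks stood at 80.6 in top2-1 and 76.6 in rrm3top2-1.

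**Figure D2:**
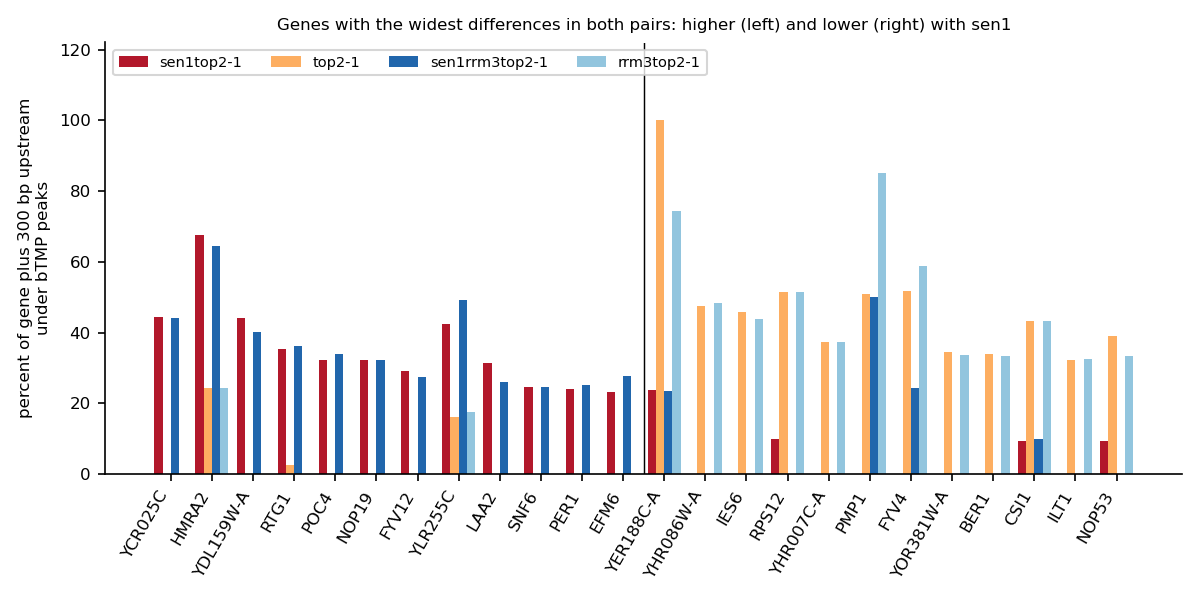
Peak cover, as the percentage of gene body plus 300 bp upstream, in each of the 4 lists for the 12 genes with the widest higher cover in both pairs (left) and the 12 with the widest lower cover in both pairs (right); each bar is 1 library. Among the higher genes only HMRA2, RTG1 and YLR255C have any cover without sen1, and among the lower genes YER188C-A, RPS12, PMP1, FYV4, CSI1 and NOP53 have some cover with sen1.

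Neighbouring genes did not always go the same way. PMP1 and YCR025C are adjacent on chromosome III. PMP1 had 0% in sen1top2-1 and 50.8% in top2-1, and 50.1% in sen1rrm3top2-1 and 85.1% in rrm3top2-1. YCR025C had 44.3% in sen1top2-1 and 0% in top2-1, and 44.2% in sen1rrm3top2-1 and 0% in rrm3top2-1, from a separate peak at III:163533-163847 in sen1top2-1. FYV12 and RPS30B are divergent neighbours on chromosome XV and were both higher. Their windows share the peak at XV:678842-679041 in sen1top2-1, so the calls are not separate results. RPS30B had 22.2% in sen1top2-1 and 0% in top2-1, and 21.0% in sen1rrm3top2-1 and 0% in rrm3top2-1.

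Differences in opposite directions reached similar widths. TRM112, which activates several methyltransferases of tRNA and translation factors, had 0% in sen1top2-1 and 38.7% in top2-1, but 38.4% in sen1rrm3top2-1 and 0% in rrm3top2-1. TPM1, the major tropomyosin, had 31.4% in sen1top2-1 and 75.2% in top2-1, but 64.6% in sen1rrm3top2-1 and 28.9% in rrm3top2-1. TIM9, a chaperone of the mitochondrial intermembrane space, had 51.2% in sen1top2-1 and 14.7% in top2-1, but 15.1% in sen1rrm3top2-1 and 45.9% in rrm3top2-1. In each of these genes sen1top2-1 was close to rrm3top2-1, and top2-1 close to sen1rrm3top2-1. These 3 were among the 6 widest of each kind and were chosen after their values were seen.

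The differences were present both upstream and in the gene body, in unequal parts. In the 61 higher genes, mean cover over the 300 bp upstream was 26.1% in sen1top2-1 and 6.57% in top2-1, and 21.3% in sen1rrm3top2-1 and 7.85% in rrm3top2-1. Over the 3' side of the gene body, split at its midpoint, it was 31.4% in sen1top2-1 and 8.56% in top2-1, and 31.0% in sen1rrm3top2-1 and 5.84% in rrm3top2-1. In the 157 lower genes, the upstream 300 bp had 10.1% in sen1top2-1 and 26.7% in top2-1, and 9.86% in sen1rrm3top2-1 and 30.2% in rrm3top2-1. Over the 3' side of the body they had 7.51% in sen1top2-1 and 34.4% in top2-1, and 13.8% in sen1rrm3top2-1 and 33.6% in rrm3top2-1. The difference was wider on the 3' side than upstream for the higher genes in both pairs and for the lower genes in the RRM3-intact pair. It was not for the lower genes in the rrm3 pair, at -20.3 points upstream and -19.8 points on the 3' side. Over all 6002 genes the mean difference in the RRM3-intact pair was -0.04 points upstream and -3.87 points on the 3' side. In the rrm3 pair it was -2.24 points upstream and 0.31 points on the 3' side. The contrast in the lower genes thus went the same way as over all genes in each pair, and the genes were chosen by this same cover.

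Gene length, orientation and polymerase occupancy were not used in choosing the genes and are given as descriptions. The higher genes had a median length of 822 bp and the lower genes 1152 bp, against 1200 bp over all genes. Since the measure is a percentage of the gene, a peak of given width covers more of a short gene. Of the 240 genes of at least 4000 bp none was higher in both pairs, against 1.02% of all genes. In the same 240 genes, 6 (2.5%) were lower in both, against 2.62% of all. The part of gene length in the calls was not tested. A divergent upstream neighbour was present for 57.4% of the higher and 49.7% of the lower genes, against 51.6% of all. At least 50% of the gene body lay under wild-type S-phase Rpb1 peaks, Rpb1 being the largest subunit of RNA polymerase II, for 20 of the 61 higher genes (32.8%) and 40 of the 157 lower genes (25.5%), against 21.9% of all. The Rpb1 lists come from S-phase cells without top2-1.

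The gene lists gave few members that went the same way in both pairs. The counts are to be read against the shares over all genes, 1.02% higher and 2.62% lower in both. Among 138 genes taken by symbol as cytosolic ribosomal protein genes, which include RPP1 of other function, 1 was higher (RPS30B) and 1 lower (RPS12), with 7 in opposite directions. Among 84 genes taken by symbol as ribosome biogenesis genes, which include some of other function such as IMP2 and MAK3, 2 were higher and 1 lower. NOP15, a large subunit assembly factor, had 68.4% in sen1top2-1 and 16.9% in top2-1, and 16.7% in sen1rrm3top2-1 and 0% in rrm3top2-1, beside NOP19 and NOP53 above. Among 87 genes matched as mitochondrial ribosomal by symbol, MRX4 was higher and RSM18, MRPS35 and MRPL17 were lower. MRPL17, a protein of the large mitochondrial subunit, had 0% in both sen1 lists, against 39.7% in top2-1 and 28.6% in rrm3top2-1.

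The 13 genes chosen as controlled by early termination through Nrd1, Nab3 and Sen1 are the list closest to Sen1's known work. Of these, 3 were lower in both pairs, none was higher in both, and 2 went in opposite directions. IMD2, an IMP dehydrogenase gene with a well-studied attenuated transcript, had 9.56% in sen1top2-1 and 19.7% in top2-1, and 15.5% in sen1rrm3top2-1 and 26.2% in rrm3top2-1. ADE12, which encodes adenylosuccinate synthase, had 0% in both sen1 lists, against 12.1% in top2-1 and in rrm3top2-1. GSC2, a glucan synthase gene, had 5.29% in sen1top2-1 and 21.6% in top2-1, and 8.43% in sen1rrm3top2-1 and 18.9% in rrm3top2-1. IMD2 was just past the 10-point threshold in both pairs, at -10.2 points in the RRM3-intact pair and -10.7 in the rrm3 pair, and GSC2 in the rrm3 pair, at -10.4 points. Over the whole list the mean difference was -7.04 points in the RRM3-intact pair and 5.23 points in the rrm3 pair, so the list as a whole did not go one way. Among 22 transcription termination genes none went the same way in both pairs.

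Cell cycle genes gave 3 shared calls, all lower, where 2.62% of all genes were lower in both pairs and 1.02% higher. MCD1, the cleavable subunit of cohesin, had 8.65% in sen1top2-1 and 23.8% in top2-1, and 8.90% in sen1rrm3top2-1 and 24.8% in rrm3top2-1. PRI1, the catalytic subunit of DNA primase, had 0% in both sen1 lists, against 14.6% in top2-1 and 15.4% in rrm3top2-1. SPO12, a regulator of mitotic exit, had 32.6% in sen1top2-1 and 85.2% in top2-1, and 34.2% in sen1rrm3top2-1 and 55.7% in rrm3top2-1. Of the 26 members of the G1/S list, 2 were lower in both pairs and 1 went in opposite directions. Of the 16 members of the G2/M list, 1 was lower in both and 2 went in opposite directions. Mean cover of both lists was lower in sen1top2-1, at 6.09% for G1/S against 11.3% in top2-1 and at 10.2% for G2/M against 19.1% in top2-1. In the rrm3 pair the G1/S mean was 9.16% in sen1rrm3top2-1 against 10.3% in rrm3top2-1, and the G2/M mean was 16.4% in sen1rrm3top2-1 against 15.2% in rrm3top2-1.

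Metabolic and stress lists gave few members. Of 24 heat-shock genes, the Hsp40 co-chaperone gene SIS1 was higher in both pairs, with 15.8% in sen1top2-1 and 16.0% in sen1rrm3top2-1 against 0% in both lists without sen1. Of 22 plasma membrane and cell wall genes, SED1, which encodes an abundant wall glycoprotein, was higher in both, with 68.6% in sen1top2-1 and 48.8% in top2-1, and 60.7% in sen1rrm3top2-1 and 48.6% in rrm3top2-1. Of 98 genes taken by symbol as amino acid synthesis genes, which include some of other function such as SAM50 and GLN4, TRP2 and THR1 were higher and TRP1 was lower. THR1, homoserine kinase, had 21.3% in sen1top2-1 and 22.1% in sen1rrm3top2-1 against 0% in both lists without sen1. No member was called in the same direction in both pairs for the histone, glycolysis, galactose, hexose transporter, DNA damage response, topoisomerase and fork protection, translation elongation or pheromone response lists. Hexose transporter genes had a mean cover of 12.3% in sen1top2-1 and 21.4% in top2-1, with 8 of 18 lower where 17.4% of all genes were lower and mean cover over all genes was 7.97% in sen1top2-1 and 10.8% in top2-1. The rrm3 pair had 17.2% in sen1rrm3top2-1 and 18.1% in rrm3top2-1, with 1 of 18 lower where 8.18% of all genes were.

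Short non-coding genes had shared calls at shares near or below those of protein-coding genes, which were 1.02% higher and 2.62% lower in both pairs. Transcripts of snoRNA genes are ended by Sen1, and tRNA genes are among the barriers that Rrm3 helps forks to pass. Of 275 tRNA genes 2 were higher in both pairs (0.727%) and 5 were lower (1.82%). SUP19 had 0% in sen1top2-1 and 100% in top2-1, and 53.7% in sen1rrm3top2-1 and 100% in rrm3top2-1. YNCP0009W on chromosome XVI had 52.6% in sen1top2-1 and 0% in top2-1, and 43.7% in sen1rrm3top2-1 and 0% in rrm3top2-1. Copies of a tRNA gene have near-identical sequence, so reads may have been divided among them. Of 76 snoRNA genes none was higher in both (0.0%) and 2 were lower (2.63%). These were SNR80, with 0% in both sen1 lists, against 36.9% in top2-1 and 58.0% in rrm3top2-1, and SNR191, with 0% in both sen1 lists, against 32.9% in top2-1 and 32.4% in rrm3top2-1.

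Feature classes were compared by relative coverage, which is the covered percentage of a class over the covered percentage of the whole nuclear genome, so that a longer list does not raise every class. Promoters, the 300 bp upstream of genes, had a relative coverage of 1.86 in sen1top2-1 and 1.30 in top2-1, but 1.35 in sen1rrm3top2-1 and 1.54 in rrm3top2-1. The log2 differences were 0.53 in the RRM3-intact pair and -0.19 in the rrm3 pair. Promoter relative coverage was higher with sen1 on 16 of 16 chromosomes in the RRM3-intact pair and on 2 of 16 in the rrm3 pair, although chromosomes of one library are not replicates. Gene bodies were the mirror of this, with log2 differences of -0.23 and 0.09, higher with sen1 on 0 of 16 chromosomes in the RRM3-intact pair and on 16 of 16 in the rrm3 pair.

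**Figure D3:**
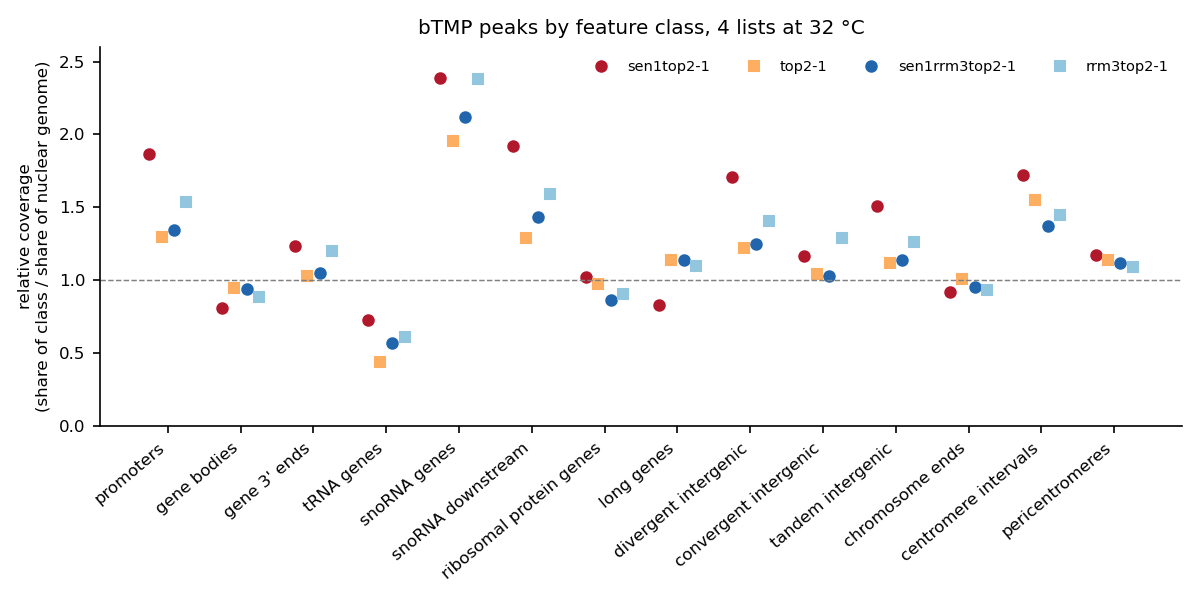
Relative coverage of 14 feature classes in sen1top2-1, top2-1, sen1rrm3top2-1 and rrm3top2-1, 1 library each; a value of 1 means that the class is covered like the nuclear genome. Promoter relative coverage is 1.86 in sen1top2-1, above the 1.30 to 1.54 of the other 3 lists.

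Intergenic classes followed the promoters. Divergent intergenic stretches, which hold promoters on both sides, had log2 differences of 0.48 in the RRM3-intact pair and -0.18 in the rrm3 pair, and tandem ones 0.43 and -0.15. Convergent stretches, where 2 genes end, had 0.16 and -0.32, and the 300 bp past gene 3' ends had 0.26 and -0.19. Genes of at least 4000 bp had a relative coverage of 0.832 in sen1top2-1 and 1.14 in top2-1, and 1.14 in sen1rrm3top2-1 and 1.10 in rrm3top2-1. Their log2 differences of -0.45 and 0.05 were opposite in sign, but with lists of equal length, equal covered base pairs or better-scored peaks both pairs were lower with sen1, at -0.91 to -0.35 in the RRM3-intact pair and -0.38 to -0.04 in the rrm3 pair. Chromosome ends, the outer 20000 bp of each arm, did the same. Their relative coverage was 0.915 in sen1top2-1 and 1.01 in top2-1, and 0.952 in sen1rrm3top2-1 and 0.933 in rrm3top2-1, with log2 differences of -0.14 and 0.03. Under the same 3 settings they were at -0.37 to -0.07 in the RRM3-intact pair and -0.11 to -0.07 in the rrm3 pair.

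Non-coding gene classes, as defined here, also differed in opposite directions between the pairs. tRNA genes with 100 bp on each side had a relative coverage of 0.725 in sen1top2-1 and 0.435 in top2-1, and 0.571 in sen1rrm3top2-1 and 0.609 in rrm3top2-1. The tRNA log2 difference of 0.74 in the RRM3-intact pair comes with a covered share of 5.08% in sen1top2-1 and 4.43% in top2-1, beside the smaller genome cover of the sen1top2-1 list. For tRNA genes without flanks the log2 differences were 0.835 in the RRM3-intact pair and 0.02 in the rrm3 pair. The opposite sign of the tRNA class thus depended on the flanks. The 500 bp downstream of snoRNA genes, where Sen1 acts in termination, had a relative coverage of 1.92 in sen1top2-1 and 1.29 in top2-1, and 1.44 in sen1rrm3top2-1 and 1.59 in rrm3top2-1. Its covered share was 13.4% in sen1top2-1 and 13.1% in top2-1, and 13.0% in sen1rrm3top2-1 and 15% in rrm3top2-1.

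Pericentromeres, the 20000 bp on either side of each centromere interval, were the 1 class of 14 with the same sign in both pairs. Their relative coverage was 1.17 in sen1top2-1 and 1.14 in top2-1, and 1.12 in sen1rrm3top2-1 and 1.09 in rrm3top2-1. The log2 differences were 0.05 and 0.04, with sen1 higher on 6 of 16 chromosomes in the RRM3-intact pair and 10 of 16 in the rrm3 pair. The rrm3 pair's sign turned with lists of equal length, equal covered base pairs and better-scored peaks, to between -0.09 and -0.02, and the RRM3-intact pair ran from -0.07 to 0.04 under them. No class therefore had the same shared sign with the lists as deposited and under each of those settings.

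Profiles around gene starts and ends showed where the class differences lay. In all 4 lists relative coverage was highest at the 50-bp step centred 25 bp upstream of the gene start. It was 2.41 there in sen1top2-1 and 1.71 in top2-1, and 1.78 in sen1rrm3top2-1 and 1.95 in rrm3top2-1. Around gene ends the highest step lay 325 bp downstream in sen1top2-1, at 1.42, and 225 bp inside the gene in top2-1, at 1.19. In the rrm3 pair it lay 225 bp inside the gene in sen1rrm3top2-1, at 1.23, and 275 bp downstream in rrm3top2-1, at 1.29. By the place of the highest step around gene ends, sen1top2-1 thus went with rrm3top2-1, and top2-1 with sen1rrm3top2-1. These end summits were shallow, and top2-1 also had 1.14 at 375 bp downstream. By height at the gene start, rrm3top2-1 was nearer to sen1rrm3top2-1 and top2-1 than to sen1top2-1.

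**Figure D4:**
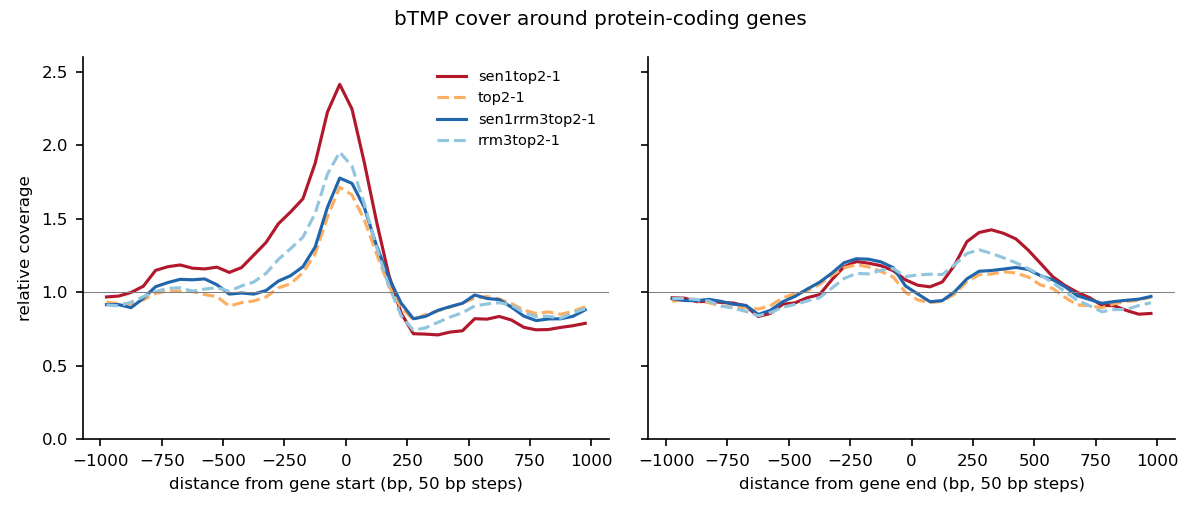
Relative coverage in 50-bp steps around the starts and the ends of protein-coding genes, with 1 line for each of the 4 lists; the x axis is the distance from the start or end in bp. The sen1top2-1 line has the highest summit just upstream of the start, 2.41, above 1.95 in rrm3top2-1, 1.78 in sen1rrm3top2-1 and 1.71 in top2-1.

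The 4 sen1 pairs of log-phase cells, whose lists are of the same closely spaced kind, give the only like comparison. These cells grew 2.5 h in YPD and carry no top2-1: sen1 against WT, sen1rrm3 against rrm3, sen1top1 against top1 and sen1rrm3top1 against rrm3top1. Promoter log2 differences in the top2-1 pairs, 0.53 and -0.19, lay beside -0.57 to 0.22 in the log-phase pairs. In a two-sided exact permutation test of the 2 pairs with top2-1 against the 4 log-phase pairs, the smallest p over 14 classes was 0.133 (pericentromeres) and the smallest adjusted p was 0.726, where 0.0667 is the smallest p the design allows. The mean pericentromere difference was 0.04 in the top2-1 pairs, where both were above 0, and -0.16 in the log-phase pairs, where all 4 were below 0. The top2-1 allele and the step to 32 °C differ together between these sets, so their parts cannot be told apart. Pairs at 32 °C without top2-1 exist, sen1 against WT and sen1rrm3 against rrm3, but their lists are not alike. Median peak width was 685 bp in sen1 and 262 bp in WT, and 606 bp in sen1rrm3 and 253 bp in rrm3. Promoter log2 differences in these pairs were -0.31 and -0.47, and pericentromere ones 0.20 and 0.22. The part of peak width in them was not tested.

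**Figure D5:**
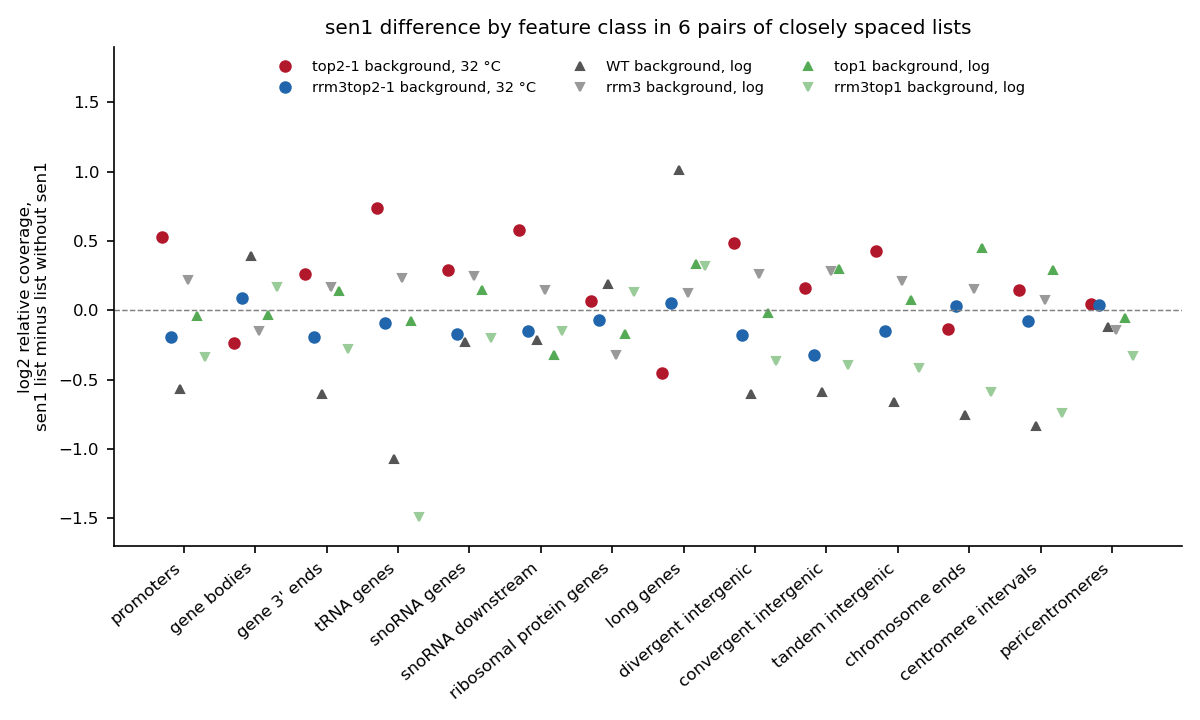
The log2 difference in relative coverage, sen1 list minus the list without sen1, for 14 feature classes in the 2 pairs with top2-1 (circles) and in the 4 log-phase pairs (triangles), 1 point for each pair of libraries. The circles lie on opposite sides of 0 in 13 of 14 classes, and for promoters the triangles run between -0.57 and 0.22.

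The genes picked in both top2-1 pairs did not keep their direction in the log-phase pairs, which are separate libraries. Of the 61 higher genes, 17 were higher and 13 lower in sen1 against WT, 5 and 18 in sen1rrm3 against rrm3, 5 and 22 in sen1top1 against top1, and 14 and 16 in sen1rrm3top1 against rrm3top1. Of the 157 lower genes, 40 were higher and 46 lower in sen1 against WT, 24 and 49 in sen1rrm3 against rrm3, 48 and 20 in sen1top1 against top1, and 39 and 41 in sen1rrm3top1 against rrm3top1. Over all 6002 genes the same pairs had 812 higher and 679 lower, 301 and 793, 535 and 716, and 875 and 599. At 32 °C without top2-1, where the sen1 lists have wider peaks than their references, most of the 157 lower genes were higher. In sen1 against WT 108 were higher and 12 lower, and in sen1rrm3 against rrm3 113 and 7. The 61 higher genes had 33 and 7, and 33 and 6. Over all genes these pairs had 2742 higher and 386 lower, and 2759 and 202. The part of peak width was not tested. Among single genes in log phase, IES6 had differences of -45.6 points in sen1 against WT and -26.7 points in sen1rrm3 against rrm3. In the 2 pairs with top1 they were -0.87 and -0.37 points. SNF6 was higher by 9.85 and 46.9 points in the WT and rrm3 backgrounds, and its difference was -36.7 points in top1 and 0 in rrm3top1.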

How the data were processed

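Only the 4 lists of pulled-down DNA from top2-1 cells, the 8 log-phase lists and, for side values, the other deposited lists were used, and the input libraries were not analysed here. The tools named in the submitters' processing notes are deepTools, SAMtools, Picard and Bowtie2. Not given in the sources used here are genome build, peak caller and calling settings. The authors deposited 1 peak list per library with a score for each peak whose meaning is not stated. Read depth is unknown, so list length may follow depth. The deposited scores served only to rank peaks within a list.

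Peaks were joined, counted and intersected with RefSeq genes (assembly R64, for names, neighbours and class membership only) in Python 3.11.15 with numpy 2.4.6, pandas 2.3.3, scipy 1.17.1 and matplotlib 3.10.9. Peak coordinates are printed as deposited, in 1-based form. As a check of the unstated build, wild-type Rpb1 peaks covered 99.3% of ribosomal protein gene base pairs unshifted, within 0.1 points of the best from -60 to 60 bp, and 39.8% and 41.2% at shifts of 1000 bp. The nuclear genome was taken as 12.1 Mb. Mitochondrial peaks were left out.

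Cover, calls at 10 points and relative coverage are defined where first used. Named genes are the 12 in each direction with the largest value of the smaller difference, the strain loci, and up to 4 members of each of 21 lists (1017 of 1018 members found). The members, lists and rules were chosen with earlier results of these data known. Promoter base composition was not used here. Alternatives were a call at 20 points, gene body or upstream window alone, lists of equal length or equal base pairs, better-scored peaks, other overlap and flank sizes, and the data without sen1top2-1.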

Additional observations from a re-analysis of the deposited data

Results flagged for a closer look

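In 13 of the 14 feature classes the sen1 difference in log2 relative coverage had opposite signs in the 2 pairs, which is what marked them for a closer look. The difference between the pairs was not tested, since each is 1 library against 1. The values below give the RRM3-intact pair (sen1top2-1 against top2-1) and then the rrm3 pair (sen1rrm3top2-1 against rrm3top2-1).

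Around gene starts and ends, promoters had 0.53 and -0.19, gene 3' ends 0.26 and -0.19, divergent intergenic stretches 0.48 and -0.18, tandem ones 0.43 and -0.15, and convergent ones 0.16 and -0.32. Gene bodies had -0.23 and 0.09, and genes of at least 4000 bp -0.45 and 0.05. Among non-coding genes, tRNA genes with 100 bp on each side had 0.74 and -0.09, snoRNA genes 0.29 and -0.17, and the stretch downstream of snoRNA genes 0.58 and -0.15. Ribosomal protein genes had 0.07 and -0.07, chromosome ends -0.14 and 0.03, and centromere intervals 0.15 and -0.08. The classes overlap one another and share the same 4 lists, so they are not 13 separate observations. The sen1top2-1 list, with the fewest peaks and the lowest Jaccard index with the others, enters each value of the RRM3-intact pair. Its part in the opposite signs was not tested.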

How the results depend on the processing

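The settings concerned the call threshold, the gene window, the size of the lists and the overlap that counts. Of the recomputed values 51 were classed as close to those reported, 18 as moved and 2 as turned in sign. Some means over both pairs classed as close also changed sign, such as tRNA genes from 0.32 to -0.13 with better-scored peaks. The snoRNA gene mean went from 0.059 to -0.13 with equal base pairs. Among those classed as moved, centromere intervals went from 0.037 and ribosomal protein genes from 0.0016 to negative values. The 61 genes higher in both pairs became 16 at 20 points, 111 with lists of equal length and 123 with equal covered base pairs. The 157 lower in both became 45 at 20 points and 102 with equal base pairs. Of the 61 higher genes, 50 remained with the gene body alone (61 called), 17 with the upstream window alone (55), 49 with equal length, 45 with equal base pairs and 21 with better-scored peaks (60). Of the 157 lower genes, 124 remained with the body alone (168 called), 47 with the upstream window alone, 103 with equal length (129), 82 with equal base pairs and 56 with better-scored peaks (120). Of the 12 named genes in each direction, 5 to 12 of the higher and 7 to 12 of the lower remained under each of these settings and the 20-point call. Genes of opposite direction were 48, 219 and 226 at 20 points, equal length and equal base pairs, against 61, 240 and 225 of shared direction. The 94 sites with sen1 only became 187 with equal length and 202 with equal base pairs. Without the sen1top2-1 list, an alternative chosen after seeing the data, the rrm3 pair alone gave 450 higher and 491 lower genes, and the other 3 lists gave 398 sites with sen1 only and 466 in both lists without sen1 only.

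As means of the log2 difference over both pairs, ribosomal protein genes were at -0.10 with equal base pairs, and long genes at -0.65 and chromosome ends at -0.22 with better-scored peaks. Centromere intervals were at -0.18, -0.23 and -0.20 with equal length, equal base pairs and better-scored peaks. Pericentromeres were at -0.0012, 0.011 and -0.082 under the same settings, so they turned sign with equal length and with better-scored peaks. Classes of opposite sign in the 2 pairs numbered 11 of 14 with equal length, 10 with equal base pairs and 11 with better-scored peaks. Long genes and chromosome ends were lower in both pairs under all 3, centromere intervals with equal length and equal base pairs, ribosomal protein genes with equal base pairs and pericentromeres with better-scored peaks. With the lists as deposited, tRNA genes without flanks were higher in both pairs, at 0.835 in the RRM3-intact pair and 0.02 in the rrm3 pair. The cause of these shifts was not tested. No paired analysis by replicate was possible because each group has 1 library and the labels carry no replicate numbers to block on. The 2 pairs are matched by strain only. Depth is unknown, so a site missing from a list cannot be called absent from those cells.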
